A study of Mus musculus with 6 samples.

Results

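The genes described here mark cells that are copying their DNA or dividing. They were taken from a list of 34 genes by symbol: a probe set counted if the array's annotation gave it that gene's symbol and no other, and where a gene had several, the brightest on average was used. Of the 34 genes, 33 were measured among 18194 genes in all, namely 13 S phase genes and 20 of 21 mitotic genes. Ccnb1, which encodes a B-type cyclin, had no such probe set, so it has no expression values here and enters only the promoter counts.

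Whole pancreas was profiled at postnatal day 15, in NMRI mice, on 6 Affymetrix arrays, 3 per genotype. The Prox1-OE samples carried Jojo-Prox1 and Ngn3-cre, and the controls carried Ngn3-cre alone, so every sample carried the Cre. The series asked how expression changes when beta cells make too much of Prox1, a transcription factor with a homeodomain. Ngn3-cre acts in the progenitors of endocrine cells, while most cells of a whole pancreas are exocrine, so a value averages the islets with acinar, ductal, vascular, stromal and blood cells. Whether samples were single animals, littermates or pools is not in the labels, and p-values measure the spread between these samples only.

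A dividing cell passes through S phase, in which DNA is copied, and mitosis, in which the copies are separated. S phase genes are switched on by E2F transcription factors as a cell commits to division. Many mitotic genes are held off by the DREAM complex in resting cells and switched on late in the cycle by MYBL2 with its MuvB partners and by FOXM1, mostly through an element called the CHR and through CCAAT boxes, which bind NF-Y. Acinar and beta cells of mice both multiply by division in the weeks after birth, and both slow as the organ matures. In a bulk sample, fewer cycling cells and less of these transcripts per cycling cell cannot be told apart.

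All values are log2 probe set summaries, so a difference of 1 is a change of 2-fold. The medians of the arrays lay between 4.38 and 4.42, and readings below them are near the dim end of the scale. Correlations between arrays ran from 0.987 to 0.994. Prox1-OE replicate 1 stood apart on the first principal component (score 28.7, against -16.7 to 4.4 on the others) and control replicate 3 on the second (21.3, against -11.6 to 6.4). The tissue label matched its markers: the 7 measured acinar markers averaged 12.6 to 12.8 per array and Ins2, an insulin gene, read 12.6 to 13.4. Prox1 itself read 5.14 ± 0.41 (SD, n = 3) in controls and 5.20 ± 0.19 in Prox1-OE, from a probe set whose place relative to the transgene is not known here, so it checks no label. Xist, which is made from the inactive X chromosome, read 11.2 and 11.6 on replicate 2 of Prox1-OE and of control and 4.003 to 4.29 on the other arrays, so control replicate 3 shared its low reading with 3 other arrays. The Xist readings were looked up after the members' values were seen. The difference between 3′ and 5′ probe sets of Gapdh and beta-actin, a measure of RNA degradation, was 0.94 on control replicate 3 and 0.91 to 0.99 on the others.

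The array averages of both groups of genes overlapped between the genotypes, and their spread came mainly from the controls. A difference between the genotypes in these averages was not tested. Control replicate 3 had the highest reading of the 6 arrays for 12 of 13 S phase members and 18 of 20 mitotic members. Among all genes it was the highest array for 21.5%. Averaged over the S phase members and set relative to the mean of the controls, the arrays read -0.30, -0.17 and 0.47 in control replicates 1, 2 and 3, and -0.14, -0.22 and 0.06 in Prox1-OE replicates 1, 2 and 3. The same averages over the mitotic members were -0.44, -0.22 and 0.65 in control and 0.01, -0.28 and -0.46 in Prox1-OE. All 3 Prox1-OE arrays therefore lay between control replicate 3 and control replicate 1 for the S phase genes, and the lowest mitotic averages were shared by Prox1-OE replicate 3 and control replicate 1.

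**Figure D1:**
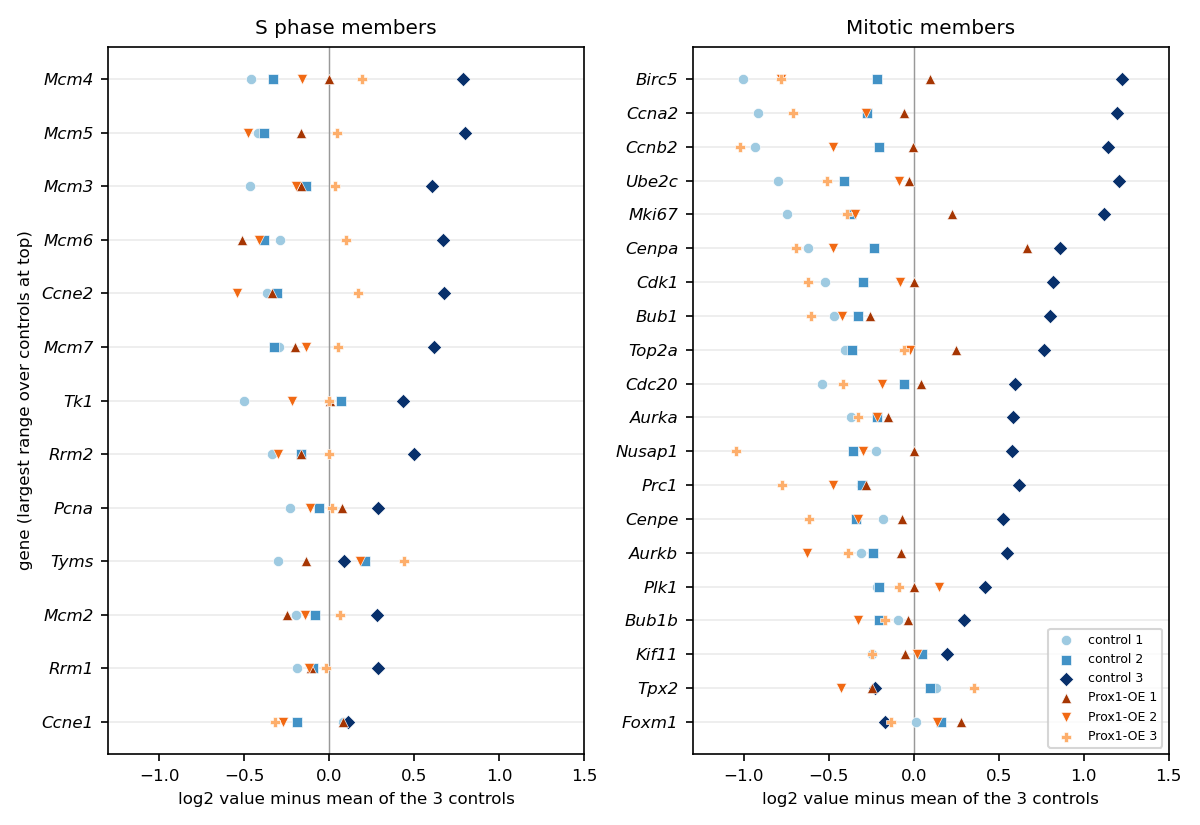
Log2 value of each measured member on each of the 6 arrays minus the mean of the 3 controls (x axis), 1 row per gene (y axis), with S phase members on the left and mitotic members on the right, ordered by their range over the controls. Control replicate 3 (dark diamond) is the rightmost point for 12 of 13 S phase and 18 of 20 mitotic genes; Tyms, Tpx2 and Foxm1 are the exceptions.

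The helicase that unwinds DNA ahead of the replication fork is a ring of Mcm2 to Mcm7, and its genes showed the pattern of the S phase group at its widest. Mcm4 read 7.39, 7.52 and 8.64 in control replicates 1, 2 and 3 and 7.85, 7.69 and 8.05 in Prox1-OE. Control replicate 3 stood above every other array, and all Prox1-OE arrays lay above the other controls. The group means nevertheless differed by 0.01 ± 0.30 (SE, limma adjusted p = 0.997), because the range over the controls was 1.24, or 2.37-fold. Mcm5 read 7.21, 7.25 and 8.43 in control and 7.47, 7.15 and 7.68 in Prox1-OE, a difference of -0.20 ± 0.31 (limma adjusted p = 0.928). Prox1-OE replicate 2 lay below both low controls and the other replicates above them.

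Mcm6 had the most negative difference of the S phase members. It read 7.36, 7.26 and 8.31 in control and 7.13, 7.23 and 7.74 in Prox1-OE, a difference of -0.28 ± 0.28 (limma adjusted p = 0.868). Here Prox1-OE replicates 1 and 2 lay just below the low controls and replicate 3 above them, so the groups overlapped. Mcm3 read 6.14, 6.47 and 7.22 in control and 6.45, 6.42 and 6.65 in Prox1-OE (difference -0.11 ± 0.24, limma adjusted p = 0.954). Mcm7 read 8.20, 8.17 and 9.11 in control and 8.29, 8.36 and 8.54 in Prox1-OE (difference -0.10 ± 0.24, limma adjusted p = 0.958). For Mcm7 every Prox1-OE value lay between the low controls and control replicate 3. Mcm2 spanned less, 8.14 to 8.61 in control and 8.09 to 8.40 in Prox1-OE. Averaged over the 6 helicase genes, control replicate 3 read 0.63 above the control mean, control replicates 1 and 2 read -0.35 and -0.27, and the Prox1-OE arrays read -0.22, -0.25 and 0.08.

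Pcna, the sliding clamp that holds DNA polymerase on its template, spanned less. It read 9.70, 9.86 and 10.21 in control and 10.0002, 9.81 and 9.94 in Prox1-OE, a difference of -0.01 ± 0.14 (limma adjusted p = 0.995; 95% interval -0.32 to 0.31). The Prox1-OE values sat inside the range of the controls. Ccne1 and Ccne2 encode the E-type cyclins, which drive entry into S phase with Cdk2. Ccne2 read 4.23, 4.29 and 5.27 in control and 4.26, 4.05 and 4.76 in Prox1-OE, a difference of -0.24 ± 0.29 (limma adjusted p = 0.898). It was high on control replicate 3 and next highest on Prox1-OE replicate 3. Ccne1 did not share that pattern by its brightest probe set. It read 5.09, 4.83 and 5.13 in control and 5.10, 4.74 and 4.70 in Prox1-OE. Control replicates 1 and 3 and Prox1-OE replicate 1 were thus alike. Its difference was -0.17 ± 0.14 (limma adjusted p = 0.832), the lowest adjusted p of the S phase members. The dimmer probe set of Ccne1 did have the pattern of Ccne2, with a difference of -0.01. It read 4.22 on replicate 3 of both genotypes and 3.92 to 3.98 on the other arrays, all below the array medians.

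The enzymes of nucleotide supply followed the helicase in part. Rrm1 and Rrm2, the subunits of ribonucleotide reductase, read 6.92 and 8.53 on control replicate 3, above 6.45 to 6.62 and 7.69 to 8.02 on the other arrays. A dimmer Rrm1 probe set, still above the array medians, was instead highest on Prox1-OE replicate 1 (5.51, against 5.43 on control replicate 3). Its difference was 0.16, against -0.08 for the brightest. Tk1, thymidine kinase of the salvage route, read 4.68 on control replicate 3 and 3.75 to 4.31 elsewhere. Tyms, thymidylate synthase, was the only S phase member whose highest array was another, with 4.14 on Prox1-OE replicate 3 against 3.79 on control replicate 3. All of its readings lay below the array medians, and so did the lower readings of Tk1. By the brightest probe sets, the differences of these 4 genes ran from -0.16 for Rrm2 to 0.16 for Tyms.

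The largest spread of all members was among mitotic genes. Birc5 encodes survivin, a subunit of the chromosomal passenger complex. It read 4.91, 5.70 and 7.14 in control and 6.01, 5.13 and 5.14 in Prox1-OE. Control replicate 3 was the highest array and control replicate 1 the lowest, 4.69-fold apart, and all Prox1-OE values lay between them. The difference between genotypes was -0.49 ± 0.51 (limma adjusted p = 0.873; 95% interval -1.65 to 0.67).

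The cyclins that activate Cdk1, the kinase that starts mitosis, behaved alike. Ccna2 read 4.94, 5.59 and 7.06 in control and 5.80, 5.58 and 5.15 in Prox1-OE, again with both extremes among the controls (difference -0.35 ± 0.46, limma adjusted p = 0.907). Ccnb2 read 4.25, 4.98 and 6.33 in control and 5.18, 4.71 and 4.16 in Prox1-OE (difference -0.50 ± 0.48, limma adjusted p = 0.864). For Ccnb2 the lowest arrays were Prox1-OE replicate 3 and control replicate 1. Cdk1 itself read 6.84 on control replicate 3 and 5.40 to 6.02 on the others.

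Ube2c and Cdc20 serve the anaphase-promoting complex, which ends mitosis by marking cyclins for destruction. Ube2c read 5.65, 6.04 and 7.66 in control and 6.42, 6.36 and 5.94 in Prox1-OE, a difference of -0.21 ± 0.45 (limma adjusted p = 0.952). Prox1-OE replicates 1 and 2 lay above the 2 low controls and below control replicate 3. Cdc20 read 7.14 on control replicate 3 and 6.0002 to 6.58 elsewhere. Mki67, which encodes the Ki-67 protein that is used in histology to count cycling cells, read 6.12, 6.4989 and 7.99 in control and 7.09, 6.53 and 6.48 in Prox1-OE. It varied 3.65-fold over the controls, and the genotypes differed by -0.17 ± 0.43 (limma adjusted p = 0.959). Top2a, the topoisomerase that untangles chromosomes, read 7.08 on control replicate 3, 5.92 and 5.96 on the other controls and 6.26 to 6.57 in Prox1-OE.

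Prc1 came nearest to a difference between the genotypes. The protein bundles microtubules of the spindle midzone for cytokinesis. It read 5.07, 5.07 and 5.996 in control and 5.10, 4.90 and 4.61 in Prox1-OE, where only replicate 1 overlapped the controls. The difference of -0.51 ± 0.25 had the lowest adjusted p of all members (limma adjusted p = 0.765; 95% interval -1.09 to 0.07). Nusap1, another spindle protein, read 5.25, 5.11 and 6.04 in control and 5.47, 5.17 and 4.42 in Prox1-OE (difference -0.45 ± 0.31, limma adjusted p = 0.806). Its lowest array was Prox1-OE replicate 3, and Prox1-OE replicates 1 and 2 lay among the controls. Cenpa, the histone variant of centromeres, was unusual in being nearly as high on Prox1-OE replicate 1 (6.06) as on control replicate 3 (6.25), with 4.70 to 5.16 on the other arrays.

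The mitotic kinases were dimmer. Aurka and Aurkb, the Aurora kinases of the spindle poles and of the passenger complex, read 4.73 and 4.34 on control replicate 3 and 3.77 to 3.99 and 3.16 to 3.72 on the others. Bub1 and Bub1b, of the spindle checkpoint, read 4.84 and 4.84 there and 3.43 to 3.78 and 4.22 to 4.51 elsewhere. Plk1, the Polo kinase, read 5.62 on control replicate 3 and 4.98 to 5.35 on the others. The motor proteins Cenpe, of the kinetochore, and Kif11, of the bipolar spindle, read 4.74 and 4.24 on that array, against 3.60 to 4.14 and 3.80 to 4.09. Apart from Plk1 and some readings of Bub1b, these genes lay below the array medians on the other 5 arrays, where small differences are poorly measured. In all, 8 members, 2 of S phase and 6 of mitosis, had a mean at or below 4.39, the median of all probe sets.

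Foxm1 and Tpx2 departed from the pattern, and for both the reading depended on the probe set. Foxm1, the transcription factor of late cell cycle genes, read 8.09, 8.23 and 7.90 in control and 8.35, 8.21 and 7.94 in Prox1-OE from its brightest probe set, so control replicate 3 was its lowest array (difference 0.09 ± 0.13, limma adjusted p = 0.917). Of its 3 dimmer probe sets, 1 read 4.10 on control replicate 3 and 3.72 to 3.87 on the others, and the other two were highest on control replicates 1 and 2. Tpx2, which activates Aurora A on the spindle, read 4.15 on control replicate 3 and 4.73 on Prox1-OE replicate 3, its highest array. Of its 3 other probe sets, 2 were highest on control replicate 3, the brighter with 4.49 there and 3.53 to 3.82 elsewhere. Of all 77 probe sets of the members, 59 had control replicate 3 as their highest array, against 20.9% of all named probe sets. Of the 41 whose mean lay above 4.39 it was 39, against 19.4%, and of the 36 dimmer ones it was 20.

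No member passed the test, over all genes, for a difference between Prox1-OE and control. Of all genes, 5 passed, which is 0.0275%. The adjusted p of limma ran from 0.832 to 0.997 over the S phase members and from 0.765 to 0.989 over the mitotic members. At an unadjusted p under 0.05, 0 members were lower and 0 higher by their brightest probe set, against 3.7% and 2.94% of all genes. Of all 77 probe sets of the members, 2 were lower at that level, against 3.42% of all named probe sets, and neither passed after adjustment. They were a dim one of Top2a (difference -0.45, limma adjusted p = 0.770), whose groups did not overlap, and a second one of Cdc20 (difference -0.70, limma adjusted p = 0.796). By the brightest probe set, the groups did not overlap for 0 members in either direction, against 7.02% of all genes that were wholly lower and 5.05% that were wholly higher in Prox1-OE. The median difference was -0.11 over the S phase members and -0.22 over the mitotic members, and -0.01 over all genes. The difference was negative for 11 of 13 S phase and 17 of 20 mitotic members, against 53.8% of all genes. These members share the high control array, so their signs are not separate pieces of evidence. The test could not exclude sizeable changes: the 95% intervals of single genes reached -1.65 for Birc5 and -1.60 for Ccnb2 on one side and 0.83 for Cenpa on the other.

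Without control replicate 3 the signs turned. The difference was then positive for 12 of 13 S phase members (median 0.14) and 13 of 20 mitotic members (median 0.07). Again no member passed over all genes, of which 0.022% did. Mcm4 (0.40) and Top2a (0.44) were the members with an unadjusted p under 0.05, both higher in Prox1-OE, that is 2 of 33 against 2.92% of all genes. The dim Top2a probe set was lower in Prox1-OE than on every control, so the direction for Top2a depended on the probe set. Their adjusted p was the lowest of the members (limma adjusted p = 0.739 for each). The most negative differences among the mitotic members were then those of Tpx2 (-0.22), Prc1 (-0.20) and Nusap1 (-0.16), of which Tpx2 had read -0.11 with all arrays. Without control replicate 1 the medians were -0.24 and -0.49, and without control replicate 2 they were -0.18 and -0.37, with no member past the test in either fit. Of all genes, 0.0055% passed in each. Prc1 was the 1 member lower at an unadjusted p under 0.05 in both of these fits, against 3.55% of all genes without control replicate 1 and 3.57% without control replicate 2. Ccne1 was the 1 such member without Prox1-OE replicate 1 (2.85% of all genes), and Tpx2 without Prox1-OE replicate 3 (3.9%). As shares of 33 members the counts of 1 are near or below those of all genes. The 2 members higher without control replicate 3 are a larger share than the 2.92% of all genes, but the shares are not alike. That array was the highest for 12 of 13 S phase and 18 of 20 mitotic members, against 21.5% of all genes. Leaving it out therefore raised the differences of most members by construction, and no conclusion is drawn from this count.

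**Figure D2:**
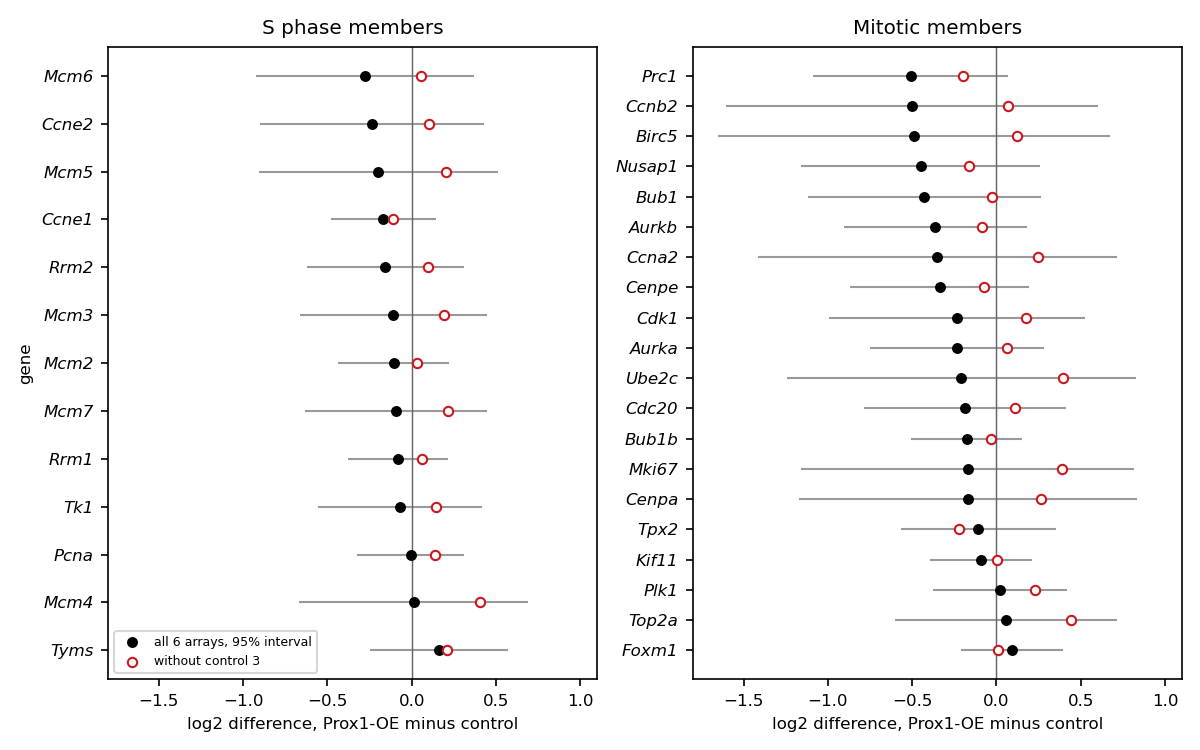
Log2 difference of each member, Prox1-OE minus control (x axis), with the limma 95% interval from all 6 arrays (black points and grey lines) and the difference without control replicate 3 (red circles), for S phase members on the left and mitotic members on the right. All 33 intervals span 0, and most red circles lie to the right of the black points.

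The controls spread more widely than the Prox1-OE arrays. The SD over arrays of the average S phase member was 0.41 in control and 0.15 in Prox1-OE, and that of the average mitotic member was 0.58 and 0.24. Gene by gene, the SD was larger in control for 11 of 13 S phase and 17 of 20 mitotic members, against 51% of all genes. The exceptions were Ccne1, Tyms, Foxm1, Tpx2 and Nusap1. The median SD was 0.47 in control and 0.16 in Prox1-OE for S phase members, 0.55 and 0.27 for mitotic members, and 0.12 and 0.12 for all genes. Without control replicate 3 the SD over the remaining controls of the S phase average was 0.10, and that of the mitotic average 0.16. Leaving out the most extreme of 3 arrays always lowers an SD. These values are therefore not set against those of the 3 Prox1-OE arrays.

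**Figure D3:**
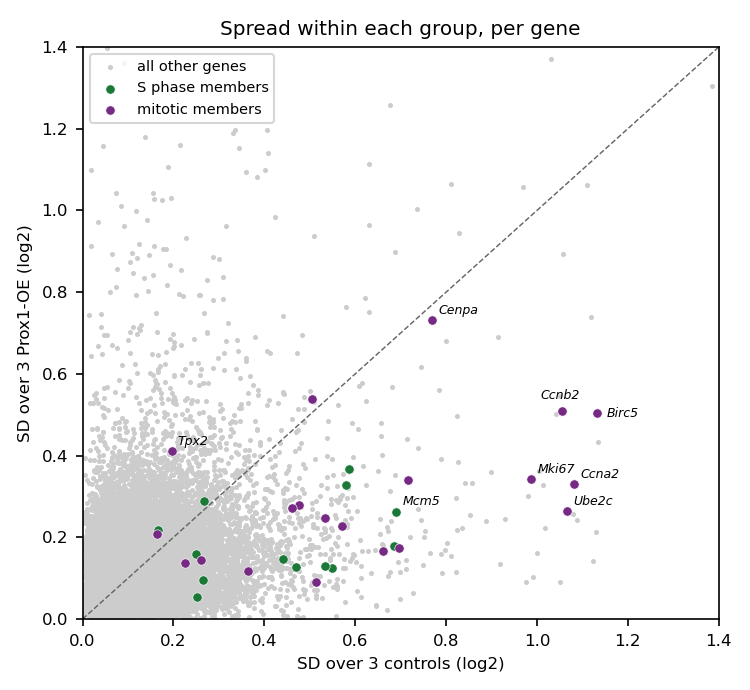
SD of each gene over the 3 controls (x axis) and over the 3 Prox1-OE arrays (y axis), in log2 units, for the S phase members (green), the mitotic members (purple) and all other genes (grey); the dashed line marks equal SD, and 23 genes lie outside the axes. Most members lie well to the right of the line, with Birc5, Ccna2, Ube2c and Ccnb2 farthest along the x axis.

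Genes this far up on control replicate 3 were few. It exceeded the next highest array by more than 0.5 for 137 of all genes (0.753%), of which 7 were S phase members (53.8% of those measured) and 14 were mitotic members (70.0%). The gap was widest for Ccna2 (1.25), Ube2c (1.24), Ccnb2 (1.15) and Birc5 (1.13) among the mitotic members and for Mcm5 (0.75) among those of S phase. Such a gap was not particular to the members. Of the further genes described below, 8 of 37 DNA replication genes (21.6%), 18 of 59 mitosis genes (30.5%) and 0 of 24 regulators had it. Together with the members, these lists held 47 of the 137 genes (34.3%).

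S phase and mitotic genes did not vary in step over the Prox1-OE arrays. Among these 3 arrays, replicate 3 was the highest for 10 of 13 S phase members, and replicate 1 was the highest for 17 of 20 mitotic members. Over all genes the shares were 36.1% for replicate 3 and 35.3% for replicate 1. The mitotic average minus the S phase average was 0.16, -0.05 and -0.52 on Prox1-OE replicates 1, 2 and 3 and -0.13, -0.05 and 0.18 on the controls. Prox1-OE replicate 3 thus had S phase genes near the control mean and mitotic genes as low as in control replicate 1. The averages by role showed the same: on that array the helicase genes read 0.08, and Cdk1 with its cyclins Ccna2 and Ccnb2 read -0.79 relative to the control mean. In the further lists the split on that array was smaller: 59 other mitosis genes minus 37 other DNA replication genes averaged -0.14 on Prox1-OE replicate 3, 0.11 and -0.03 on replicates 1 and 2, and -0.04 to 0.04 on the controls. A difference between the genotypes in this balance was not tested.

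**Figure D4:**
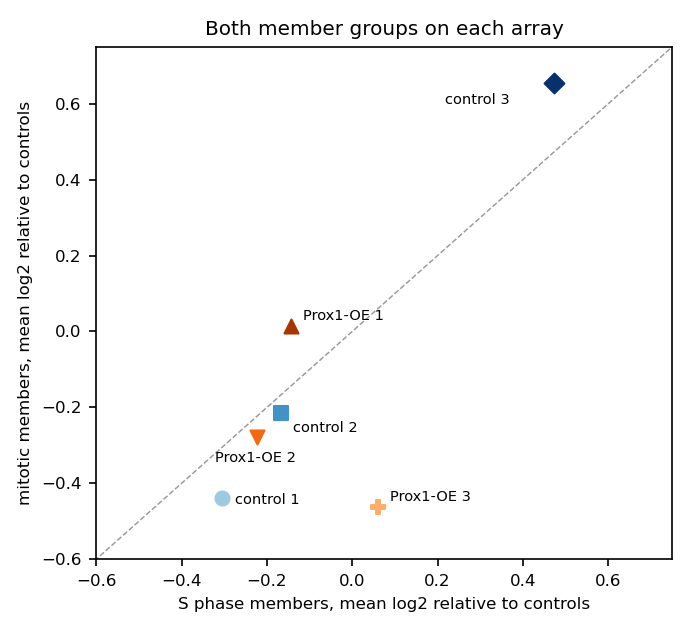
Average of the 20 mitotic members (y axis) against the average of the 13 S phase members (x axis) on each array, both in log2 units relative to the mean of the controls; the dashed line marks equal values. Control replicate 3 lies alone at the top right, and Prox1-OE replicate 3 lies farthest below the line.

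Further genes of the same processes were also highest on control replicate 3 for the most part. Of 37 further DNA replication genes measured of 40, control replicate 3 was the highest array for 33, and of 59 further mitosis genes of 62 it was the highest for 43. The averages on that array were 0.38 and 0.42, and on the other arrays -0.24 to -0.05 and -0.29 to 0.00. None of them passed over all genes. Among the replication genes, Cdc6, which loads the helicase, read 4.58, 5.36 and 6.80 in control and 4.54, 4.55 and 4.79 in Prox1-OE. Control replicate 3 was again far above the rest, and the difference was -0.95 ± 0.46 (limma adjusted p = 0.763). Clspn, which links the fork to the checkpoint kinase, had the smallest p of its list. It read 4.67, 4.73 and 4.81 in control and 4.43, 4.53 and 4.32 in Prox1-OE, with no overlap, but did not pass (difference -0.31 ± 0.09, limma adjusted p = 0.690).

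Rfc5, of the clamp loader, differed by -0.35 ± 0.18 (limma adjusted p = 0.766). Among the mitosis genes, Spc25, of the kinetochore, read 6.97 on control replicate 3 and 5.77 to 6.27 elsewhere. Ckap2, of the spindle, and Cdca2, which binds a phosphatase to chromosomes, differed by -0.30 ± 0.15 and -0.18 ± 0.09. Regulators of the cycle were less uneven over the arrays: of 24 E2F, DREAM and related genes, control replicate 3 was the highest array for 9, and their average there was 0.12. E2f7, a repressor of the E2F family, read 3.64, 3.86 and 3.67 in control and 3.43, 3.40 and 3.52 in Prox1-OE, all below the array medians (difference -0.27 ± 0.10, limma adjusted p = 0.693). E2f5 differed by 0.24 ± 0.10 and E2f6 by 0.30 ± 0.14, and neither passed.

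Markers of the cell types that a whole pancreas can hold were not high with the members on control replicate 3. Of 103 markers in 13 lists, 84 were measured. Relative to the control mean, the lists averaged between -0.43 and 0.08 on that array. The acinar list, of the most abundant cell type, read -0.03 there, 0.06 and -0.03 on the other controls and -0.13 to -0.03 in Prox1-OE. The blood endothelial list was lower on control replicate 3 than on any other array (-0.40, against 0.01 to 0.31), with all 6 of its genes at their lowest. Pecam1, an adhesion protein of endothelium, read 4.69 there and 5.58 to 6.01 elsewhere, and Cdh5, its cadherin, read 5.35 against 5.53 to 6.15. Beta cell markers on that array read -0.25, between the other controls (0.27 and -0.01) and the Prox1-OE arrays (-0.81 to -0.52). Markers of B cells (-0.05), germinal centre B cells (-0.03), T and NK cells (0.08) and erythroid cells (-0.19), whose precursors can divide, lay near the control mean there.

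On Prox1-OE replicate 1 the mitotic genes were highest within that genotype. Markers of B cells (1.20), macrophages (0.77), T and NK cells (0.52), fibroblasts (0.57) and lymphatic endothelium (0.55) were also at their highest of the 6 arrays there. So were those of blood endothelium (0.31) and germinal centre B cells (0.23). Of the 5 germinal centre markers, 2 were higher and 3 lower in Prox1-OE, with a median difference of -0.02. On Prox1-OE replicates 2 and 3 the B cell list read 0.22 and 0.44 and the macrophage list 0.31 and 0.22. The B cell averages rested largely on Ms4a1 and Ighm, whose differences between the genotypes were 2.26 and 1.44. Over the 7 B cell markers the median difference was 0.11, against a mean of 0.62, with 5 markers higher and 2 lower in Prox1-OE. By level, the 7 of 8 B cell markers measured averaged 4.40 to 5.38 in Prox1-OE and 4.14 to 4.22 in control, and the 9 macrophage markers 6.68 to 7.22 and 6.31 to 6.60. The part of these cells in the members' values was not tested.

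**Figure D5:**
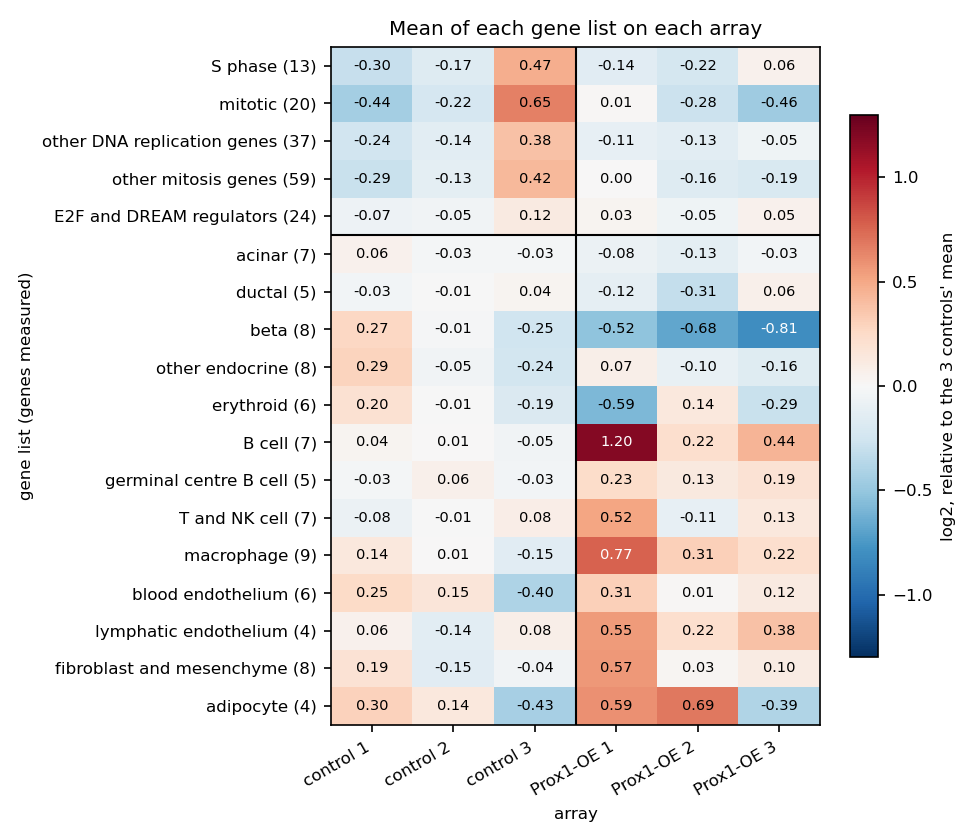
Average log2 value of each gene list on each array relative to the mean of the 3 controls, as colour and number; rows are gene lists with the number of genes measured, the horizontal line separates cell cycle lists from cell type markers, and columns are arrays, split by genotype. Control replicate 3 reads 0.47 and 0.65 for the S phase and mitotic members and between -0.43 and 0.08 for the marker lists.

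Promoters are shown for the E2F, CHR and CCAAT elements named above, and their part in the members' values on these arrays was not tested. RefSeq promoter windows (GRCm38.p6, 250 bases before to 50 after the start of a gene, 300 in all) were matched by symbol for 28 of the 34 genes, in 30 windows, of which the 2 of Prc1 overlap. The matched genes include Ccnb1, which was not measured. No window was matched for Ccne2, Mcm4, Ccna2, Aurkb, Foxm1 and Tpx2. On either strand, 3 motifs were searched: the CCAAT box (CCAAT), the CHR (TTTGAA) and the E2F site (TTTGGCGC, TTTCCCGC, TTTGCCGC or TTTCGCGC). Printed are the bases before the start for the 3 mitotic and 3 S phase members with the widest range over the controls among those with 1 window. Each runs 5′ to 3′ on the gene's strand, and capitals mark the motifs. They lie at chr11:117848987-117849236 (plus strand) for Birc5, chr9:70421555-70421804 (minus) for Ccnb2, chr2:164769679-164769928 (plus) for Ube2c, chr8:75109259-75109508 (plus) for Mcm5, chr1:20820313-20820562 (minus) for Mcm3 and chr1:128359706-128359955 (minus) for Mcm6.
Birc5: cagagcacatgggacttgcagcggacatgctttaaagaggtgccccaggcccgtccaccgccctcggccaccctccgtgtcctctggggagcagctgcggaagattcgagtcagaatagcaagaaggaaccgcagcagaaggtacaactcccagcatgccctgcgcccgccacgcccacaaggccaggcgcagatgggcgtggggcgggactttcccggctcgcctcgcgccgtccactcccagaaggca
Ccnb2: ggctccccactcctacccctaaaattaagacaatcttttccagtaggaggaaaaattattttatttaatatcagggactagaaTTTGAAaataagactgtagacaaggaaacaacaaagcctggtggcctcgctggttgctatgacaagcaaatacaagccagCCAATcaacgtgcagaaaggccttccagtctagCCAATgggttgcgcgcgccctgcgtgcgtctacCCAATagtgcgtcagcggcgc
Ube2c: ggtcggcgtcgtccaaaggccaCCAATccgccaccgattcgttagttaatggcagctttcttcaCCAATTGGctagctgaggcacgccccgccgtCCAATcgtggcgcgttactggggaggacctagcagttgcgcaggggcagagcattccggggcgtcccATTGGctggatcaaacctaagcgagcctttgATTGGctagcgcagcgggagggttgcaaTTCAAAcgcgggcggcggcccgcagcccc
Mcm5: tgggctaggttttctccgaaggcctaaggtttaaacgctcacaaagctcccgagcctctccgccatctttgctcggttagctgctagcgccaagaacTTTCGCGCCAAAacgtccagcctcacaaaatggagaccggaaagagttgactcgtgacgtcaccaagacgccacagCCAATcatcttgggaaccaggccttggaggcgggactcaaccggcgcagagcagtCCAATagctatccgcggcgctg
Mcm3: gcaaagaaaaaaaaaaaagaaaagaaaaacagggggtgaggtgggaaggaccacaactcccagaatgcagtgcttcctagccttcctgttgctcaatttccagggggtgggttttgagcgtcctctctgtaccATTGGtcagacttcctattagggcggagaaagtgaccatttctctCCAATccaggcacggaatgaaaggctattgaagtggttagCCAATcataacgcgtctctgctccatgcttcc
Mcm6: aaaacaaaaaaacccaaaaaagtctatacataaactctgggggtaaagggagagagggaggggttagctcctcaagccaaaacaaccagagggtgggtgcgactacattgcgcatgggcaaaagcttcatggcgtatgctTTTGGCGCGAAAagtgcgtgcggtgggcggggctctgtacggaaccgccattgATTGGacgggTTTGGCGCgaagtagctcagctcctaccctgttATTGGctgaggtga

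The printed mitotic promoters were not alike. Ccnb2 held 3 CCAAT boxes in 1 orientation, whose first bases stood at positions -87, -54 and -21 from the start, and a CHR sequence at -167, with another CHR just past the start. Ube2c held 6 CCAAT boxes over both strands, 2 of which overlap in the run CCAATTGG, and a CHR at -29. Birc5, the member with the widest range over the controls, held none of the letters searched in its window. Bases outside the window were not searched. The S phase promoters held E2F letters and no CHR: Mcm5 and Mcm6 each carried a pair of overlapping E2F matches on opposite strands, Mcm6 had 1 more, and Mcm3 had its 2 past the start, outside the printed part. Mcm5, Mcm3 and Mcm6 also held CCAAT boxes.

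Over all windows matched, the CHR letters stood in 13 of 18 mitotic windows (72.2%) and 1 of 12 S phase windows (8.33%, in Mcm2), against 17.9% of all 32851 windows of that length. The E2F letters stood in 1 mitotic window (5.56%, in Cdk1) and 4 S phase windows (33.3%, in Mcm3, Mcm5, Mcm6 and Mcm7), against 2.26%. CCAAT boxes were common to both, in 88.9% of mitotic and 75% of S phase windows, against 37.4%. The further lists had the same split: the CHR stood in 65.4% of windows of the other mitosis genes and 13.9% of those of the other replication genes, and the E2F letters in 5.77% and 38.9%. A match is a run of letters in the window and shows neither binding nor its absence.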

How the data were processed

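Gene expression in whole pancreas was measured on Affymetrix 3′ arrays in 2 groups of 3 samples, from 100 ng of total RNA per the labels' protocols. The deposited values were log2 probe set summaries by the authors. The submitters' processing notes name RMA and Partek 6.5 and give no settings for them. RMA forces the arrays to a common distribution and compresses dim probe sets. Of 45101 probe sets, 34958 had 1 gene symbol in the platform annotation, 932 had several and 9211 had none.

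Groups were taken from the sample titles. Over 18194 genes they were compared in limma 3.58.1 (R 4.3.3; lmFit, then eBayes), two-sided, with no covariate or filter and with Benjamini-Hochberg adjustment at 0.05. The number of arrays limits the precision. The fit was tested on simulated data.

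The members and all gene lists were chosen with earlier results of these data known. By rule, values on every array were given for the 4 S phase and 4 mitotic members with the largest absolute difference, the 4 with the largest range over the controls and the 2 with the highest mean. Of the 3 further cell cycle lists, the 3 genes with the smallest p were named, and of each marker list up to 2. Other members are given by ranges. Other settings tried were the choice of probe set, a filter on dim genes, normalization, eBayes and array weights, a block for replicate number, the threshold, and leaving out each array.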

Additional observations from a re-analysis of the deposited data

How the results depend on the processing

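No member passed the threshold under any setting run, including an adjusted p of 0.1 and every probe set on its own. Over all genes, 5 passed, 2 with the replicate number as a block (replicate block), and 0 to 3 without either genotype's replicates 1 and 2 or Prox1-OE replicate 3; 4 passed without control replicate 3. Same-numbered samples deviated together with correlations of 0.04, 0.14 and 0.11, each sample's highest, which is a hint from the data and not from the design, and the block changed no member's call. The pair at 0.14, replicate 2 of Prox1-OE and of control, shared high Xist readings (11.2 and 11.6). It also shared low readings of Eif2s3y, a gene of the Y chromosome (3.06 and 2.89). The part of such genes in the correlations was not tested. The median differences ran from -0.24 to 0.14 (S phase) and -0.49 to 0.07 (mitotic) without each array. The SD over controls of the S phase average was 0.097 to 0.5492 without each array, and lowest without control replicate 3.

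The sign of a member's difference was less stable. It turned for 20 of 33 members without control replicate 3 and for 1 to 4 without any other array. Ccne1, Tyms, Aurkb, Bub1, Bub1b, Foxm1, Nusap1, Cenpe and Prc1 kept their sign whichever array was left out. For the members whose sign turned, the differences without each array ranged as follows: Ccne2 (-0.44 to 0.10), Mcm2 (-0.21 to 0.0328), Mcm3 (-0.34 to 0.19), Mcm4 (-0.22 to 0.40), Mcm5 (-0.41 to 0.20), Mcm6 (-0.47 to 0.0566), Mcm7 (-0.26 to 0.21), Pcna (-0.12 to 0.14), Rrm1 (-0.18 to 0.0611), Rrm2 (-0.32 to 0.0934), Tk1 (-0.32 to 0.15), Mki67 (-0.54 to 0.39). For the other members whose sign turned they were Top2a (-0.14 to 0.44), Cdk1 (-0.50 to 0.17), Ccnb2 (-0.97 to 0.0707), Ccna2 (-0.81 to 0.25), Aurka (-0.42 to 0.0599), Birc5 (-0.99 to 0.12), Plk1 (-0.089 to 0.23), Cdc20 (-0.46 to 0.11), Kif11 (-0.22 to 0.0048), Ube2c (-0.61 to 0.40), Tpx2 (-0.34 to 0.0549), Cenpa (-0.58 to 0.26). With probe sets specific to 1 transcript, Mcm2 read 0.049 and Top2a -0.45. With all probe sets of a gene averaged, Mcm4 read -0.075, Top2a -0.20 and Foxm1 -0.095. Quantile normalization again gave -0.019 for Mcm4, median centring gave 0.013 for Pcna, and array weights gave 0.032 for Pcna and 0.017 for Mcm7. The cause of these turns was not tested. The filter on dim genes removed 8 members. Signal near background limits the dim members.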
